A study of Mus musculus with 9 samples.

Results

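Whole-brain transcript levels were examined for 9 genes of voltage-gated ion channels: the calcium channel α2δ subunits Cacna2d1, Cacna2d2 and Cacna2d3, the calcium channel pores Cacna1a, Cacna1b and Cacna1g, and the hyperpolarization-activated channels Hcn2, Hcn3 and Hcn4. The genes were taken by name as targets or candidate targets of pain drugs, and each symbol matched 1 of the 53465 genes in the count and FPKM tables. All 9 passed the filter on low counts, which 18501 genes passed. The data came from brains of male C57BL/6 mice that were 7 weeks old at the start, with 3 libraries in each of 3 groups described as biological replicates in the study's methods. Control mice (CON) ate standard chow and received saline. Diabetic neuropathic pain mice (DNP) ate a diet with 60% fat during 4 weeks, then had 7 daily injections of 50 mg/kg streptozotocin, which destroys insulin-producing cells, and received saline. The third group (BAC) had the same diet and streptozotocin and afterwards baclofen, which activates GABA-B receptors, in a daily dose of 8 mg/kg for 7 days. Only diabetic mice with lasting high glucose and lowered pain thresholds were enrolled, so DNP and BAC are a selected subset of the injected animals, and diet, streptozotocin and selection cannot be told apart in a comparison with CON.

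Voltage-gated calcium channels open on depolarization and let calcium enter the cell. The pore-forming subunits set the channel type: Cacna1a encodes the P/Q-type pore and Cacna1b the N-type pore, both of which trigger transmitter release at nerve terminals, and Cacna1g encodes a low-threshold T-type pore that supports burst firing, for example in thalamic neurons. The α2δ subunits are extracellular proteins that bring pores such as the P/Q-type and N-type to the plasma membrane. The proteins of Cacna2d1 and Cacna2d2 bind gabapentin and pregabalin, drugs used against neuropathic pain, and that of Cacna2d3 does not. HCN channels open on hyperpolarization, carry an inward cation current and help set the rate of repetitive firing. Hcn2 is widely expressed in brain and is required for pain hypersensitivity in sensory neurons, Hcn4 is the main pacemaker isoform of the heart, and Hcn3 is expressed at a low level in many neurons. The N-type pore is the target of ziconotide, and ivabradine blocks HCN pores.

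The coding stretches below are shown because they hold the residues behind the grouping of the genes. Gabapentin binding depends on a run of arginines in the α2δ protein. The 38 bases of each α2δ gene were read from the GRCm38 genome with the GENCODE annotation, on the coding strand and within 1 exon, and capitals mark the aligned triplet of codons. All 3 codons in capitals encode arginine in Cacna2d1 and in Cacna2d2, and 2 of 3 do so in Cacna2d3. The stretches lie at chr5:16264290-16264327 on the plus strand (exon 8 of 39), chr9:107512323-107512360 on the plus strand (exon 8 of 39) and chr14:29347122-29347159 on the minus strand (exon 7 of 38).
Cacna2d1: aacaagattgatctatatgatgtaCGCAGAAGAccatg
Cacna2d2: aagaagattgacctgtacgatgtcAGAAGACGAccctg
Cacna2d3: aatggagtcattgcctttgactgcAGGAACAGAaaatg

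For the HCN genes, 57 bases around the pore filter are shown, since the same glycine, tyrosine and glycine codons (in capitals) stand in all of Hcn2, Hcn3 and Hcn4 although the codons used differ. They lie in exon 4 of 8 of each gene, at chr10:79728935-79728991 on the plus strand for Hcn2, at chr3:89150982-89151038 on the minus strand for Hcn3 and at chr9:58855567-58855623 on the plus strand for Hcn4.
Hcn2: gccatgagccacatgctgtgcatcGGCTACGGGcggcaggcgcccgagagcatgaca
Hcn3: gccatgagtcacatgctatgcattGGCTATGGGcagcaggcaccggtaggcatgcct
Hcn4: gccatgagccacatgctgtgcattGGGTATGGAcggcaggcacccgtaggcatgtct

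The genes themselves differ widely in size. Cacna2d3 spans 816922 bases of chromosome 14 (28904943 to 29721864) and Cacna2d1 spans 439821 bases of chromosome 5 (15934691 to 16374511), whereas Hcn3 spans 14123 bases of chromosome 3 (89146074 to 89160196) and Hcn2 spans 19475 bases of chromosome 10 (79716634 to 79736108). Cacna1a lies at chr8:84388440-84640246, Cacna1b at chr2:24603887-24763152, Cacna1g at chr11:94408391-94474198, Cacna2d2 at chr9:107399612-107529343 and Hcn4 at chr9:58823412-58863175. The exonic length implied by the count and FPKM of each gene was 10150 to 19240 bases for the 6 calcium channel genes, 4340 for Hcn2, 5536 for Hcn3 and 6118 for Hcn4. The libraries carried no strand information, so reads of a gene and of an overlapping gene cannot be told apart. Cacna2d3 overlaps 7 annotated genes including Lrtm1, Cacna2d1 overlaps 3 and Cacna2d2 overlaps 2. Cacna1a overlaps Gm16183, Cacna1b overlaps Gm13459 and Hcn3 overlaps Pklr, and Cacna1g, Hcn2 and Hcn4 overlap none.

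The libraries held 13107382 to 16008129 counts. Their make-up by brain region differed within groups as well as between them, and the share of mitochondrial counts was 4.34 to 5.36% in CON against 5.94 to 7.23% in the diabetic groups, whose part in the results was not tested. Of 10 cerebellar granule cell markers, the summed level was 104 to 5901 CPM, a count scaled to library size without regard to gene length, in CON, 89.9 to 540 in DNP and 71.0 to 2927 in BAC, with CON 2 and BAC 1 highest and Gabra6 at 0 in DNP 2, DNP 3 and BAC 2. Of 8 Purkinje cell markers, it was 1247 to 6903 CPM in CON, 632 to 982 in DNP and 998 to 3440 in BAC. Of 12 markers of caudal hindbrain and spinal cord, it was 408 to 443 CPM in DNP 1, BAC 1 and BAC 3 and at most 29.5 in the other 6 libraries, where 6 to 10 of the 12 genes had no count. Olfactory bulb markers summed to 301 CPM in DNP 2 and 105 in BAC 2 against at most 24.9 elsewhere. The label "whole brain" thus covered libraries with unequal shares of cerebellum, hindbrain and olfactory bulb RNA, and neuronal markers were present in all (4158 to 6247 CPM over 8 genes). In such bulk samples fewer cells of a type and less RNA per cell cannot be told apart.

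On the per-length FPKM scale the 9 genes differed over a wide range. Hcn2 had the highest mean over the 9 libraries (74.2 FPKM), followed by Cacna1a (23.2), Cacna1g (12.3), Cacna2d2 (9.41), Cacna2d3 (8.30), Cacna1b (8.07), Cacna2d1 (4.89), Hcn3 (4.34) and Hcn4 (2.23). Hcn2 exceeded Cacna1a in 9 of 9 libraries, Cacna1a exceeded Cacna1g in 9 of 9, and Hcn3 exceeded Hcn4 in 9 of 9. The neighbours in the middle of the order were not separated: Cacna2d2 was above Cacna2d3 in 4 of 9 libraries, Cacna2d3 above Cacna1b in 5 of 9, and Cacna2d1 above Hcn3 in 4 of 9. The highest library exceeded the lowest by 5.25-fold for Cacna2d1, 5.16-fold for Hcn4 and 4.14-fold for Cacna1a, and by 1.88-fold for Hcn3, the least variable of the 9.

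**Figure D1:**
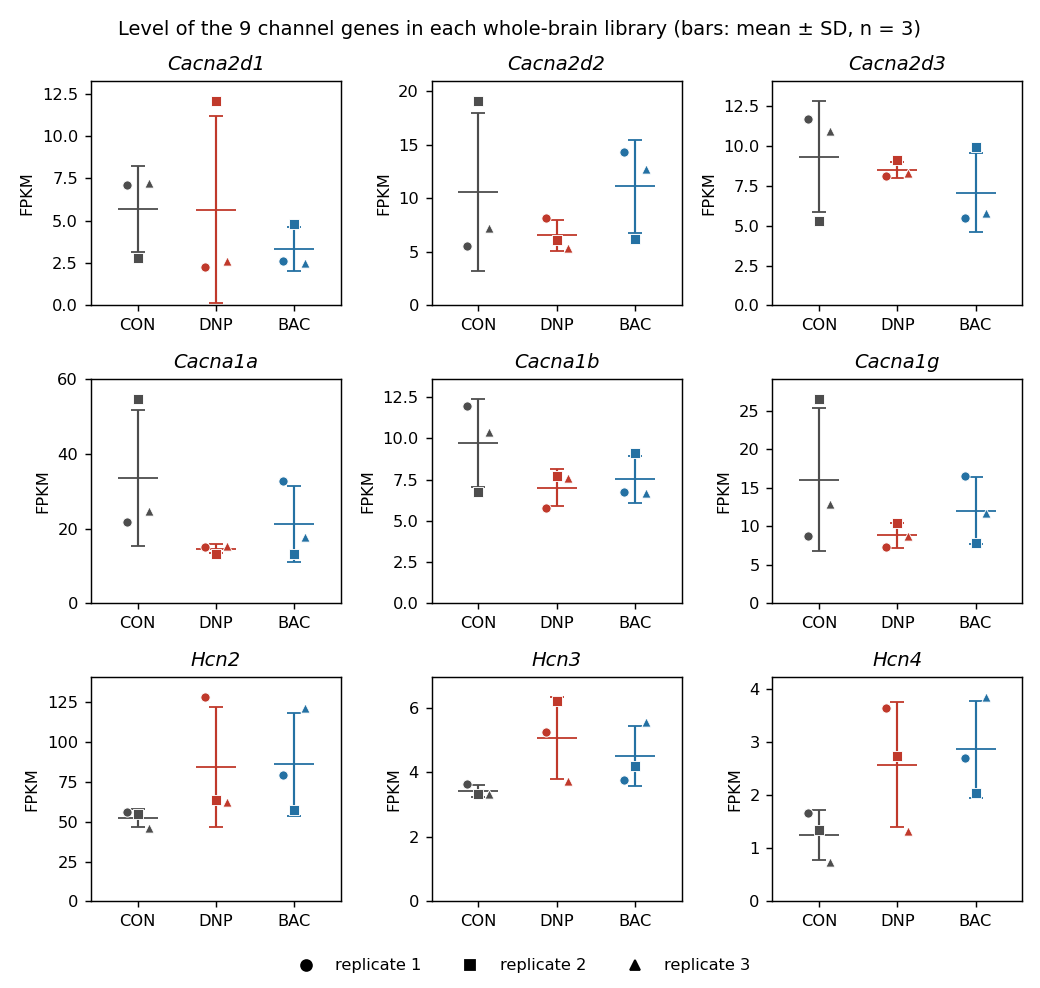
Level of each channel gene in FPKM (vertical axis, linear) for the CON, DNP and BAC groups. Points are libraries with one symbol per replicate number, and the horizontal and vertical bars give the mean and SD over 3 libraries. The CON 2 square stands highest of all libraries for Cacna2d2, Cacna1a and Cacna1g, and on this FPKM scale all 6 DNP and BAC points of Hcn2 lie above the 3 CON points.

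None of the 9 channel genes passed an adjusted p of 0.05 in any comparison of the groups by the quasi-likelihood test of edgeR. The same was true of every other gene: of 18501 genes tested, 0 passed in DNP versus CON, BAC versus DNP, BAC versus CON and both diabetic groups versus CON, and 11.2%, 2.37%, 7.76% and 11.8% had an unadjusted p under 0.05. DESeq2 called 342, 7, 100 and 364 genes in the same order, or 1.85%, 0.0379%, 0.552% and 2.05% of those with an adjusted p, with 0 of the 9 channel genes among them. At an unadjusted p under 0.05 it gave 13.1%, 2.97%, 9.21% and 13.5% of all genes and 3, 0, 1 and 3 channel genes. The differences in channel genes below therefore did not pass the test. Those of the main fit are mostly given with an SE or an interval. Those of the alternative fits are given as estimates only or with an adjusted p. Whether the libraries of 2 groups overlap is read in CPM with TMM factors, and FPKM is named where it differs. In DNP versus CON the 6 calcium channel genes all had a log2 fold change below 0 and the 3 HCN genes all had one above 0. The median was -0.18 over the α2δ genes, -0.89 over the pores and 0.65 over the HCN genes, beside 0.013 over all genes tested.

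**Figure D2:**
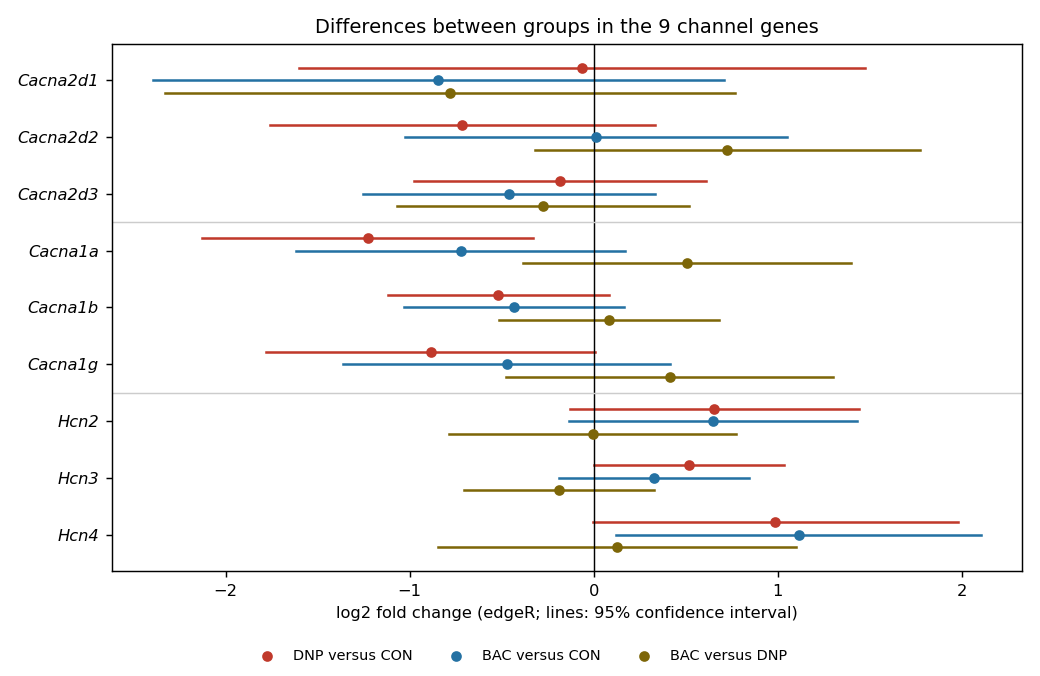
Log2 fold change of each channel gene in DNP versus CON, BAC versus CON and BAC versus DNP (horizontal axis), with points for the edgeR estimate and lines for the 95% confidence interval. The interval excludes 0 for Cacna1a in DNP versus CON and for Hcn4 in BAC versus CON, and in BAC versus DNP every interval includes 0.

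Cacna2d1, the principal gabapentinoid target, was the most variable of the genes. Its level was 7.11, 2.79 and 7.20 FPKM in CON 1 to 3, 2.29, 12.0 and 2.65 in DNP 1 to 3, and 2.6, 4.82 and 2.53 in BAC 1 to 3. The DNP libraries lay both below and above every CON library, with DNP 2 alone high, and the groups overlapped. The CON mean was 5.70 ± 2.52 FPKM, the DNP mean 5.66 ± 5.53 and the BAC mean 3.32 ± 1.3 (SD, n = 3 each). The log2 fold change in DNP versus CON was -0.064 (SE 0.67), with a 95% interval as wide as -1.60 to 1.47. DNP 2 also had the most olfactory bulb marker RNA (301 CPM, against 105 in BAC 2 and at most 24.9 elsewhere). The part of these markers in the Cacna2d1 values was not tested. Leaving out DNP 2 moved the log2 fold change in DNP versus CON most, to -1.27 (edgeR adjusted p = 0.505), and without DNP 1 it was 0.31. In BAC versus DNP it was -0.78 (SE 0.68, adjusted p = 0.998) and turned to 0.42 without DNP 2.

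Cacna2d2, the second gabapentin-binding subunit and one that is abundant in cerebellar Purkinje cells, was highest in libraries rich in cerebellar granule cell markers. It stood at 5.55, 19.0 and 7.22 FPKM in CON, 8.17, 6.13 and 5.35 in DNP, and 14.3, 6.22 and 12.8 in BAC. The highest 3 libraries, CON 2, BAC 1 and BAC 3, were also the 3 with the most granule cell marker RNA (957 to 5901 CPM). The Purkinje markers gave another order, with CON 3 (2417 CPM) above BAC 3 (1562 CPM). The group means were 10.6 ± 7.34, 6.55 ± 1.46 and 11.1 ± 4.30 FPKM (SD, n = 3), and the libraries of every pair of groups overlapped. The difference on the log2 scale was -0.71 (SE 0.46, interval -1.76 to 0.33, adjusted p = 0.589) in DNP versus CON and 0.72 (SE 0.46, adjusted p = 0.998) in BAC versus DNP. Without CON 2 the first of these was -0.034, and with cerebellar granule cell and caudal hindbrain marker scores as covariates it was 0.46.

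Cacna2d3, whose product lacks the gabapentin-binding triplet, ran opposite to Cacna2d2 across libraries. Its level was 11.7, 5.32 and 11.0 FPKM in CON, 8.13, 9.09 and 8.31 in DNP, and 5.47, 9.93 and 5.82 in BAC. CON 2, BAC 1 and BAC 3 were the 3 lowest libraries, the same 3 that were highest for Cacna2d2, and the Pearson correlation of log2 CPM between the genes was -0.86 over 9 libraries that share their regional make-up. The means were 9.31 ± 3.48, 8.51 ± 0.507 and 7.07 ± 2.48 FPKM. In DNP versus CON the log2 fold change was -0.18 (interval -0.98 to 0.61, adjusted p = 0.888), and it became -0.91 (edgeR adjusted p = 0.336) with the 2 marker scores as covariates and 0.035 without CON 1.

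The 3 α2δ genes together varied less than each of them. Their summed level was 24.3, 27.1 and 25.4 FPKM in CON, 18.6, 27.3 and 16.3 in DNP, and 22.4, 21.0 and 21.1 in BAC, while the share of Cacna2d2 in that sum ran from 22.5% in DNP 2 to 70.1% in CON 2 and that of Cacna2d1 from 10.3% in CON 2 to 44.2% in DNP 2. The share of Cacna2d2 averaged 40.5 ± 25.8% over the CON libraries, 33.1 ± 10.7% over DNP and 51.3 ± 18.9% over BAC (SD, n = 3). The share of Cacna2d3 was 36.9 ± 15.2%, 42.7 ± 8.85% and 33.1 ± 12.4%. No share of an α2δ gene differed between groups beyond the spread (exact two-sided permutation p from 0.3 to 0.9, 1 after adjustment over 18 tests). With 3 libraries against 3, the smallest p this test can give is 0.1.

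**Figure D3:**
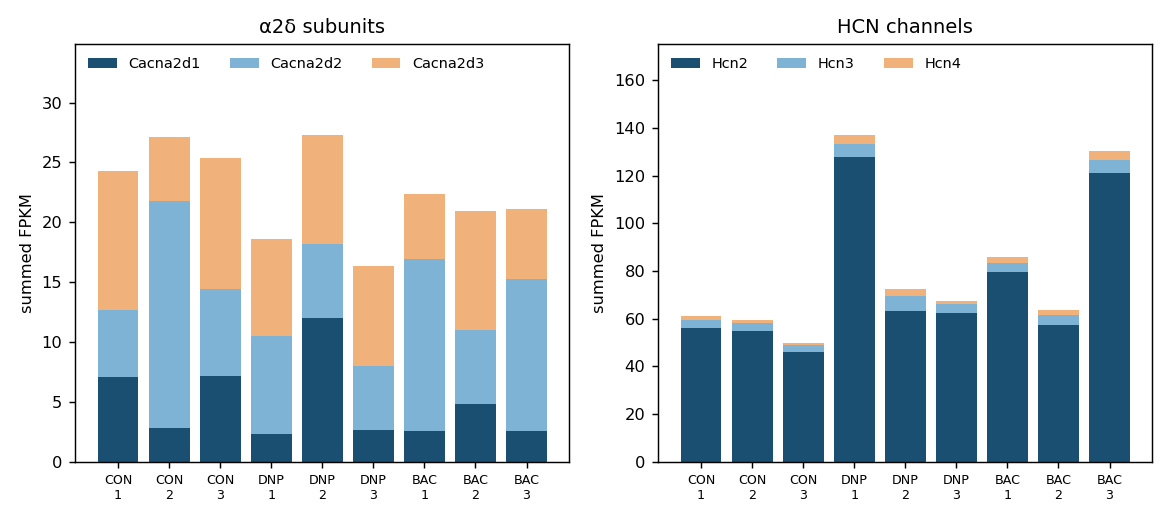
Stacked FPKM of the 3 α2δ genes (left) and the 3 HCN genes (right) in each library. The total of the α2δ genes lies between 16.3 and 27.3 FPKM while its composition changes from library to library, and Hcn2 makes up nearly all of the HCN total, which is highest in DNP 1 and BAC 3.

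Cacna1a, the P/Q-type pore, showed the largest difference of the 9 genes in DNP versus CON. The level was 21.7, 54.6 and 24.8 FPKM in CON, 15.2, 13.2 and 15.5 in DNP, and 32.8, 13.3 and 17.8 in BAC. Every DNP library was below every CON library, which was the case for 8.63% of all genes tested (18.2% did not overlap in either direction), while BAC overlapped both groups. The means were 33.7 ± 18.2 FPKM in CON, 14.6 ± 1.24 in DNP and 21.3 ± 10.2 in BAC. The log2 fold change was -1.23 (SE 0.40, interval -2.13 to -0.33, edgeR adjusted p = 0.36; 0.0941 by DESeq2), a level in DNP of 0.427 of that in CON, and Cacna1a was the 1 channel gene of 9 with an unadjusted p under 0.05. Of all genes tested 5.46% passed that p as lower and 5.71% as higher in DNP. Over both diabetic groups it was -0.98 (SE 0.33, edgeR adjusted p = 0.345), and Cacna1a and Hcn4 were the 2 channel genes with an unadjusted p under 0.05 there, where 5.42% of all genes passed as lower and 6.42% as higher. In CPM no channel gene had all 6 diabetic libraries clear of CON, as 6.95% of all genes did, while in FPKM Hcn2 and Hcn3 had all 6 above CON, where 7.19% of all genes did not overlap.

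Purkinje cells express Cacna1a strongly, and the part of their markers in its values was not tested. CON 2 and BAC 1, the 2 libraries with the most Purkinje marker RNA (6903 and 3440 CPM), had the highest Cacna1a. DNP 2 and DNP 3 had the lowest marker sums (765 and 632 CPM), while Cacna1a was lowest in DNP 2 and BAC 2 (13.2 and 13.3 FPKM). All 8 Purkinje markers were below CON in DNP (median log2 fold change -2.23). Without CON 2 the log2 fold change of Cacna1a was -0.74 (edgeR adjusted p = 0.549), and without both CON 2 and BAC 1 it was -0.73 (adjusted p = 0.433). With the granule cell and hindbrain marker scores as covariates it was -0.17 (adjusted p = 0.847), and no fit held a Purkinje score. Over all 19 alternative fits the sign of Cacna1a reversed in 0, with adjusted p from 0.0941 to 0.847. In BAC versus DNP the log2 fold change was 0.51 (SE 0.39, interval -0.38 to 1.4, edgeR adjusted p = 0.998), and it was 0.086 without BAC 1.

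Cacna1g, the T-type pore, moved with Cacna1a across libraries (Pearson r = 0.91 of log2 CPM over 9 libraries). The level was 8.80, 26.5 and 12.9 FPKM in CON, 7.27, 10.4 and 8.80 in DNP, and 16.5, 7.79 and 11.8 in BAC. CON 2 and BAC 1 were again highest, and DNP overlapped CON at its lower end. Between DNP and CON the difference was -0.89 on the log2 scale (SE 0.39, interval -1.78 to 0.0075, edgeR adjusted p = 0.446) and -0.37 without CON 2 (adjusted p = 0.737). With the marker scores as covariates its sign turned (0.47, adjusted p = 0.526).

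Cacna1b, the N-type pore, was not highest in the cerebellum-rich libraries. Its level was 11.9, 6.75 and 10.4 FPKM in CON, 5.75, 7.71 and 7.57 in DNP, and 6.72, 9.13 and 6.68 in BAC. CON 1 and CON 3, the highest for this gene, also had the most neocortical marker RNA (1980 and 1852 CPM over 8 genes, against 368 to 1482 in the other 7 libraries). The means were 9.69 ± 2.66, 7.01 ± 1.1 and 7.51 ± 1.4 FPKM, and CON 2 fell within the range of DNP. In DNP versus CON the log2 fold change was -0.52 (SE 0.26, interval -1.12 to 0.081, edgeR adjusted p = 0.492). It was -0.75 without CON 2 (adjusted p = 0.46) and -1.0 with the marker scores as covariates (adjusted p = 0.314), a larger difference where that of Cacna1a was smaller.

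**Figure D4:**
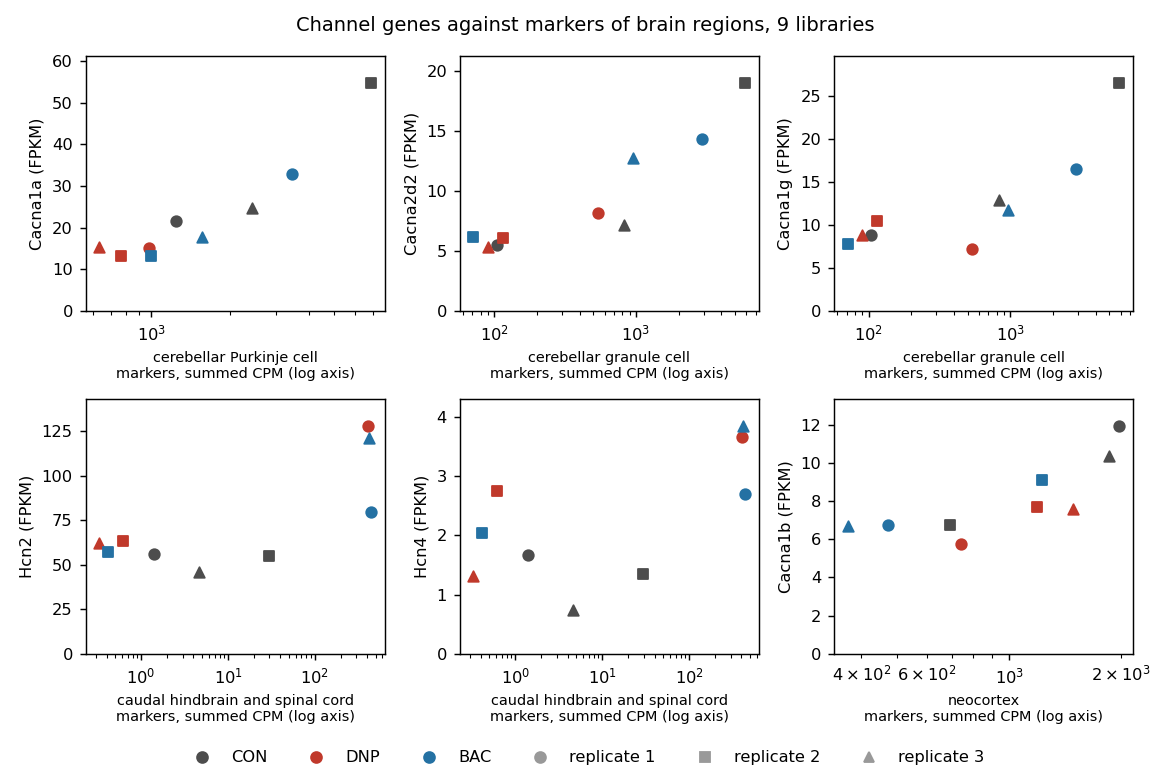
FPKM of a channel gene (vertical axis, linear) against the summed CPM of a marker list (horizontal axis, log scale), 1 point per library, coloured by group with one symbol per replicate number. CON 2 and BAC 1 lie at the top right for Cacna1a, Cacna2d2 and Cacna1g, and DNP 1, BAC 1 and BAC 3, the libraries with 408 to 443 CPM of caudal hindbrain markers, are the 3 highest for Hcn2.

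Hcn2, the most abundant of the 9 genes, had a higher mean in both diabetic groups. The level was 55.9, 54.8 and 45.8 FPKM in CON, 128, 63.3 and 62.3 in DNP, and 79.5, 57.3 and 121 in BAC. Every DNP library was above every CON library in CPM, as for 9.59% of all genes tested, and the excess sat mainly in DNP 1, BAC 1 and BAC 3. These are the 3 libraries with caudal hindbrain and spinal cord markers, and the other 3 diabetic libraries lay at 57.3 to 63.3 FPKM. The means were 52.2 ± 5.55 FPKM in CON, 84.5 ± 37.6 in DNP and 85.9 ± 32.4 in BAC. In DNP versus CON the log2 fold change was 0.65 (SE 0.34, interval -0.13 to 1.44, edgeR adjusted p = 0.51), and it was 0.22 without DNP 1 and 0.21 without all 3 hindbrain-rich libraries. In BAC versus DNP it was -0.0059 (interval -0.79 to 0.77). Oligodendrocyte markers were highest in BAC 3 and DNP 1, the 2 libraries with the highest Hcn2. Their summed level over 7 genes was 2193 to 3066 CPM in CON, 3677 to 9158 in DNP and 2956 to 9366 in BAC. DNP 3 had 6975 CPM of these markers with Hcn2 at 62.3 FPKM, and BAC 1 had 6892 CPM with Hcn2 at 79.5 FPKM. The part of these markers in the Hcn2 and Hcn4 values was not tested.

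Hcn4, the pacemaker isoform, was the lowest of the genes and had the largest ratio of group means among the HCN genes. It stood at 1.67, 1.35 and 0.747 FPKM in CON, 3.66, 2.75 and 1.32 in DNP, and 2.71, 2.04 and 3.85 in BAC, from 67 to 364 counts per library. Every BAC library was above every CON library (7.21% of all genes tested did so, and 13.4% did not overlap in either direction), and DNP 3 lay within the CON range. The means were 1.26 ± 0.471, 2.57 ± 1.18 and 2.87 ± 0.914 FPKM. On the log2 scale the difference was 0.99 (SE 0.43, interval -0.0025 to 1.98, edgeR adjusted p = 0.446) in DNP versus CON and 1.11 (SE 0.43, interval 0.12 to 2.1, adjusted p = 0.628) in BAC versus CON, and Hcn4 was the 1 channel gene with an unadjusted p under 0.05 in the latter, against 4.46% of all genes tested in that direction. Over both diabetic groups it was 1.05 (SE 0.39, edgeR adjusted p = 0.368), with 5 of 6 diabetic libraries above the highest CON library. Without the 3 hindbrain-rich libraries, which left 1 BAC library, it was 0.63 in DNP versus CON and 0.65 over both diabetic groups. With the marker scores as covariates it was 0.21 and 0.17. The caudal hindbrain score was high in diabetic libraries only (DNP 1, BAC 1 and BAC 3), so that fit cannot fully separate it from the group.

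Hcn3 varied least. It was measured at 3.64, 3.32 and 3.34 FPKM in CON, 5.25, 6.23 and 3.72 in DNP, and 3.78, 4.19 and 5.56 in BAC. In CPM, DNP 3 and BAC 1 lay within the CON range. The means were 3.43 ± 0.183, 5.07 ± 1.26 and 4.51 ± 0.937 FPKM, and the log2 fold change in DNP versus CON was 0.52 (SE 0.23, interval -0.00045 to 1.03, edgeR adjusted p = 0.446). The highest library was DNP 2, where the caudal hindbrain markers summed to 0.614 CPM, and the value without the 3 hindbrain-rich libraries was 0.48 (edgeR adjusted p = 0.574).

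Hcn2 made up most of the summed level of these 3 HCN genes in every library, at 87.6 to 93.5%. The summed FPKM of Hcn2, Hcn3 and Hcn4 was 49.9 to 61.3 in CON, 67.4 to 137 in DNP and 63.5 to 130.4 in BAC. The Hcn2 share averaged 91.8 ± 0.417% in CON, 91.2 ± 3.17% in DNP and 91.8 ± 1.41% in BAC. The share of Hcn4 was 2.17 ± 0.626% in CON, 2.81 ± 0.927% in DNP and 3.11 ± 0.137% in BAC, with every BAC library above every CON library (exact two-sided permutation p = 0.1, the smallest possible, and 1 after adjustment over 18 tests). Hcn2 and Hcn4 had a Pearson correlation of 0.85 in log2 CPM over the 9 libraries, and Hcn3 and Hcn4 one of 0.77.

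The 250 bases upstream of the RefSeq start of Hcn2 and Hcn4 are shown since these genes varied together. The windows are from GRCm38.p6, at chr10:79716384-79716633 and chr9:58822699-58822948, both on the plus strand, with each GC box (GGGCGG or its reverse complement CCGCCC, overlaps counted) in capitals. Hcn2 held 3 boxes and Hcn4 held 2. At least 1 box was found in all 6 channel genes with a window in the table, and in 32.7% of the 32817 windows of all genes. These 6 windows had 70.4 to 82.4% G and C and 16 to 36 CpG pairs, beside a median of 6 CpG pairs over all windows. The share with a box among windows of like base content was not computed, so the boxes are not read as a trait of these genes. None of the 6 held TATAAA on the coding strand or TGACGTCA, which occur in 7.6% and 1.5% of windows.
Hcn2: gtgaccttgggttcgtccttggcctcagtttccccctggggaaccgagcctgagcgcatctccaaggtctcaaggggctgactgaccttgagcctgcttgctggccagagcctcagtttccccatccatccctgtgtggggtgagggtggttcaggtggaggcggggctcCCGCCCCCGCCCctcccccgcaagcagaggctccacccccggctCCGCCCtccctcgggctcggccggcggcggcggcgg
Hcn4: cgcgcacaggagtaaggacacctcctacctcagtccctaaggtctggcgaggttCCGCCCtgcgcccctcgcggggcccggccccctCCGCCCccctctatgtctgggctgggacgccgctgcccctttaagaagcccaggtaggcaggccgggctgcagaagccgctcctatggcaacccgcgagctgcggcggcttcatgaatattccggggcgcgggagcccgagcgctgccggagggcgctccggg

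Proteins that bind or traffic HCN channels were read beside them. Of 9 such genes, 6 were higher and 3 lower in DNP versus CON, with a median log2 fold change of 0.15. Of these 9, 0 had an unadjusted p under 0.05 by edgeR, where 11.2% of all genes tested had one. Pex5l, which encodes the HCN trafficking protein TRIP8b and was named after its values were seen, was at 12.1, 4.36 and 13.8 FPKM in CON, 14.9, 8.36 and 14.5 in DNP, and 10.1, 9.64 and 12.5 in BAC. Its groups overlapped, and the log2 fold change in DNP versus CON was 0.26 (SE 0.41, edgeR adjusted p = 0.861). Gene length also moved with this comparison, and Hcn2, Hcn3 and Hcn4 are the shortest of the channel genes. Across all genes the median log2 fold change in DNP versus CON was 0.22 over 890 genes under 1 kb, 0.026 over 2820 genes of 4 to 6 kb and -0.093 over 7422 genes over 6 kb, of which 61.6% were lower in DNP. Hcn2 and Hcn3 belong to the genes of 4 to 6 kb, and Hcn4 (6118 bases) and the 6 calcium channel genes to those over 6 kb. The part of length in the values of the channel genes was not tested.

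Among the other voltage-gated calcium channel subunits, 18 of 20 genes were tested, and 12 were lower and 6 higher in DNP versus CON, with a median log2 fold change of -0.089. Cacnb4, the β subunit that is most abundant in cerebellum and traffics P/Q-type pores, was the 1 gene of these 18 with an unadjusted p under 0.05 by edgeR. Of all genes tested 11.2% had such a p, 5.46% as lower in DNP, so the count does not exceed the share over all genes. It stood at 20.5, 31.0 and 22.6 FPKM in CON, 12.8, 14.7 and 15.9 in DNP, and 23.4, 14.3 and 14.2 in BAC. Its log2 fold change was -0.81 (SE 0.23, edgeR adjusted p = 0.328), and DESeq2 called it with an adjusted p of 0.0484, where it called 1.85% of the genes it tested. In CPM the libraries of DNP and CON did not overlap for 3 of the 18 genes, all lower in DNP, against 8.63% of all genes tested. The others were Cacna1c and Cacna1i, and in FPKM both overlapped, with DNP 2 above the lowest CON library (3.88 against 3.71 FPKM for Cacna1c and 14.64 against 14.38 for Cacna1i). These and the remaining β subunits were named after their values were seen. The β subunits had log2 fold changes of -0.082 (SE 0.60) for Cacnb1, -0.0087 (SE 0.17) for Cacnb2 and 0.0086 (SE 0.80) for Cacnb3.

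The partner proteins of the α2δ subunits and of the presynaptic pores were lower in DNP in most cases. Of 16 genes, 13 were lower in DNP versus CON with a median log2 fold change of -0.36, and 7 were lower with an unadjusted p under 0.05 and no overlap of libraries, where 5.46% of all genes tested were lower at that p and 8.63% were lower with no overlap. The list was chosen with earlier results of these data known, so an excess over all genes is no independent evidence, and no set test was made. Length also moved with it: all 7 of these genes and 12 of the 15 genes of the list with a length were over 6 kb, and 9.07% of all genes over 6 kb were lower at that p. The 5 with the smallest p were Lrp1, Bsn, Erc1, Rims1 and Thbs1. Bsn, which encodes the active zone scaffold bassoon, was at 48.5, 38.5 and 46.0 FPKM in CON, 17.1, 23.0 and 23.6 in DNP, and 24.3, 27.9 and 15.7 in BAC. Its log2 fold change was -1.11 (SE 0.25, edgeR adjusted p = 0.294) in DNP versus CON and -1.03 (SE 0.25, adjusted p = 0.628) in BAC versus CON, so that both diabetic groups lay below every CON library.

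Lrp1, an endocytic receptor that binds α2δ, was at 46.2, 57.6 and 48.6 FPKM in CON and 33.1, 29.2 and 27 in DNP, a log2 fold change of -0.81 (SE 0.17, edgeR adjusted p = 0.294). Rims1, which tethers presynaptic calcium channels at release sites, was at 28.1, 18.4 and 25.9 FPKM in CON and 9.01, 12.4 and 14.8 in DNP (log2 fold change -1.05, SE 0.31). Erc1, another active zone scaffold, was at 1.77, 3.59 and 1.72 FPKM in CON and 1.03, 0.995 and 0.921 in DNP (-1.3, SE 0.35). Every DNP library of these 3 genes was below every CON library. DESeq2 called Lrp1, Bsn and Erc1 (adjusted p = 0.000813, 0.00699 and 0.0367), where it called 1.85% of the genes it tested.

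Thbs1 and Thbs4 encode thrombospondins, secreted ligands of the α2δ subunit that promote synapse formation. They were the 2 of 43 tested genes of the 3 lists with an unadjusted p under 0.05 in BAC versus DNP, in opposite directions. Of all genes tested 2.37% had such a p. Thbs1 was at 0.518, 0.709 and 0.775 FPKM in CON, 0.345, 0.241 and 0.132 in DNP, and 0.821, 0.343 and 0.994 in BAC. In CPM all BAC libraries were above all DNP libraries, as for 3.38% of all genes tested, and in FPKM the groups overlapped, with BAC 2 (0.343) below DNP 1 (0.345). On the log2 scale Thbs1 differed by -1.51 (SE 0.46, edgeR adjusted p = 0.348) in DNP versus CON and by 1.55 (SE 0.46, adjusted p = 0.998) in BAC versus DNP. These comparisons share the DNP libraries, and Thbs1 had 13 to 100 counts in a library. Markers of meninges moved with it: all 6 were lower in DNP than in CON (median log2 fold change -0.79) and all 6 higher in BAC than in DNP (0.97), with sums of 111 to 144 CPM in CON, 68.7 to 75.2 in DNP and 94.9 to 139 in BAC, none of the 6 at 0, and their part in the Thbs1 values was not tested. Thbs4, named after its values were seen, was at 1.76, 0.219 and 1.88 FPKM in CON, 0.819, 2.24 and 4.49 in DNP, and 0.0842, 0.838 and 0.196 in BAC. Its log2 fold change in BAC versus DNP was -2.73 (SE 1.04, edgeR adjusted p = 0.998), from 4 to 246 counts in a library, and BAC 2 lay above DNP 1.

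After baclofen, none of the 9 channel genes stood clear of DNP. The log2 fold change in BAC versus DNP ran from -0.78 for Cacna2d1 to 0.72 for Cacna2d2, with a median of 0.084 beside -0.013 over all genes tested. The libraries of BAC and DNP overlapped for all 9 genes, while they did not for 6.79% of all genes tested, and 0 of 9 had an unadjusted p under 0.05 against 2.37%. The 95% intervals were wide, at -0.38 to 1.4 for Cacna1a, -0.51 to 0.68 for Cacna1b and -0.71 to 0.33 for Hcn3, so that a moderate difference in either direction was not detectable at this number of libraries.

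The genes whose level over the 9 libraries was most like that of a channel gene are given as a description, by Pearson's r of log2 CPM among 18469 genes, in libraries that share their regional make-up. Cacna2d2 was closest to Zfp395 (r = 0.99) and Plekho2 (0.99), Cacna2d3 to Utp4 (0.99) and Gm28307 (0.99), and Cacna2d1 to B230317F23Rik (0.95) and Chst11 (0.95). Cacna1a was closest to Tmem63c (0.99) and Tbata (0.98), Cacna1g to Syne2 (0.99) and Dkc1 (0.99), and Cacna1b to Man1a2 (0.98) and Plxna2 (0.98). Hcn2 was closest to Cdkn2aipnl (0.98) and to Slc6a4 (0.98), the serotonin transporter that marks the serotonin neurons of the brainstem raphe. Hcn4 was closest to Cd1d1 (0.98) and Dcbld1 (0.97), and Hcn3 to Smoc1 (0.95) and Sox13 (0.93).

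**Figure D5:**
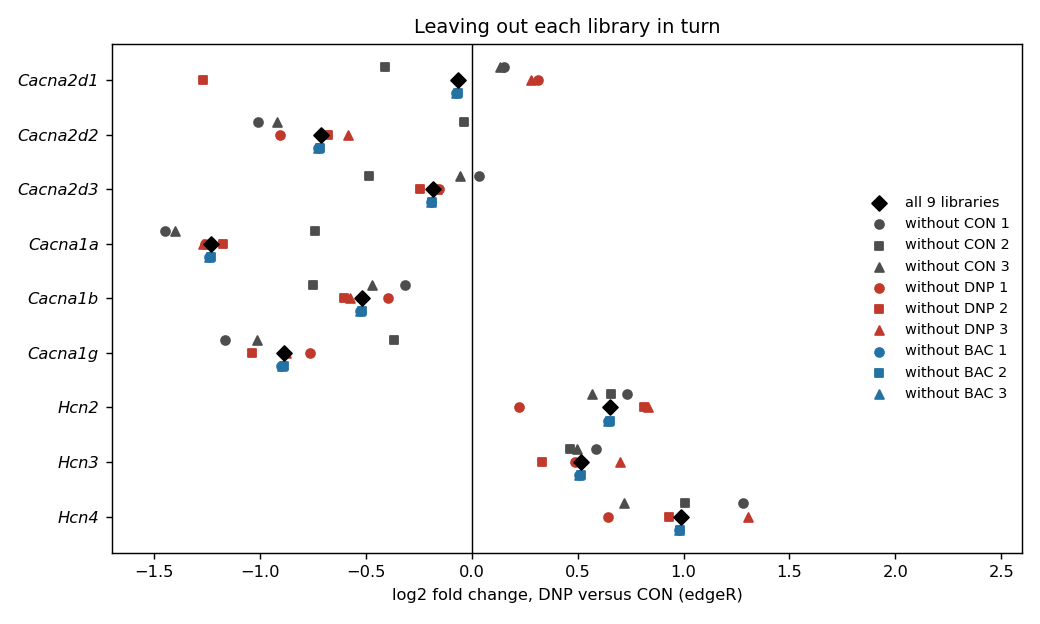
Log2 fold change of each channel gene in DNP versus CON (horizontal axis) with all 9 libraries (black diamond) and with each library left out (coloured symbols, offset by group). The Cacna2d1 estimates lie between -1.27 and 0.31 and cross 0, those of Cacna1a between -1.45 and -0.74, and those of the 3 HCN genes stay above 0.

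Leaving out 1 library at a time moved several of these differences. In DNP versus CON, Cacna2d2 ranged from -1.01 without CON 1 to -0.034 without CON 2, Cacna1g from -1.17 without CON 1 to -0.37 without CON 2, and Hcn2 from 0.22 without DNP 1 to 0.83 without DNP 3. Hcn4 ranged from 0.64 without DNP 1 to 1.3 without DNP 3. The signs of Cacna1a, Cacna1b, Cacna1g, Cacna2d2, Hcn2, Hcn3 and Hcn4 were kept in all 9 of these fits, and those of Cacna2d1 and Cacna2d3 were not.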

How the data were processed

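Per the labels and the study's methods, paired-end reads of whole-brain poly(A) RNA were made without strand information. The authors filtered reads with fastp, checked them with FastQC 0.11.9, aligned them with HISAT2 2.1.0 to GRCm38 and quantified genes with StringTie 1.3.3b (Bowtie2 2.3.4.1 is also listed). Raw counts and FPKM of each gene were deposited. Treatment of reads that map to several genes is not given in the sources used here. The deposited FPKM equal count over gene length and library total, with no TMM factor.

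Counts were fitted in R 4.3.3 with edgeR 4.0.16 (filterByExpr, minimum count 10; TMM; quasi-likelihood test; group as factor over 9 libraries), and p-values were adjusted by Benjamini-Hochberg over 18501 genes at a threshold of 0.05. CPM values carry the TMM factors. Alternatives were DESeq2 1.42.0, RLE factors, no filter, limma 3.58.1 on log2(FPKM + 1) or (FPKM + 0.1), a replicate block, only the groups compared, marker scores as covariates and each library left out. The marker scores were the mean log2 CPM of the cerebellar granule cell list and of the caudal hindbrain and spinal cord list. The latter score was high in diabetic libraries only, so fits with these covariates cannot fully separate region from group. Fits without cerebellum-rich or hindbrain-rich libraries were added after the data were seen. Counts of 13107382 to 16008129 per library and a variation between replicates of 36.5% (edgeR's common biological coefficient) limit the precision. The procedure was run on simulated counts without differences in regional make-up between libraries, so that run does not cover this feature of the data. Named genes are the 9 channel genes, up to 5 of each related list with p under 0.05 and no overlap in DNP versus CON, the 2 genes most like each channel gene, and markers; others were named after their values were seen, as the text says. Members and lists were chosen with earlier results of these data known. Sequences come from GRCm38 with GENCODE vM21 and from RefSeq windows, in which 6 of 9 genes matched. Some items, 1 alternative for the HCN shares among them, are not reported here.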

Additional observations from a re-analysis of the deposited data

How the results depend on the processing

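No setting brought a channel gene to an adjusted p under 0.05; the lowest was 0.094 for Cacna1a by DESeq2. Of the fits other than those leaving out 1 library, 326 log2 fold changes kept their sign and 25 reversed. In DNP versus CON, marker covariates gave 0.46 for Cacna2d2, 0.47 for Cacna1g and -0.0037 for Hcn2, and leaving out the hindbrain-rich libraries gave 0.30 for Cacna2d1. In BAC versus DNP, Hcn2 was 0.0024 with DESeq2 and with RLE factors, 0.020 with no filter, 0.041 and 0.042 with limma, 0.032 with the replicate block and 0.072 without the cerebellum-rich libraries. Covariates gave -0.072 for Hcn4 there, and leaving out the hindbrain-rich libraries, which left 1 BAC library assumed to vary like the others, gave 0.23 for Cacna2d3, -0.068 for Cacna1a and -0.27 for Cacna1g. In BAC versus CON, covariates gave 0.61 for Cacna1g, -0.26 for Hcn2 and -0.0033 for Hcn3, and leaving out the hindbrain-rich libraries gave -0.77 for Cacna2d2 and 0.065 for Cacna2d3. Over both diabetic groups, covariates gave 0.58 for Cacna2d2, 0.54 for Cacna1g and -0.13 for Hcn2, leaving out cerebellum-rich libraries gave 0.24 for Cacna2d2, and leaving out hindbrain-rich libraries gave 0.016 for Cacna2d1. The cause of these reversals was not tested.

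Channel genes with an unadjusted p under 0.05 numbered 1 in DNP versus CON, 3 with DESeq2 or no filter, and 2 with RLE factors, either limma fit, covariates or without the cerebellum-rich libraries. In BAC versus DNP they numbered 0, and 1 with covariates. In BAC versus CON they numbered 1, 2 with covariates and 0 without the hindbrain-rich libraries. Over both diabetic groups they numbered 2, and 3 with DESeq2 or with limma on log2(FPKM + 0.1). The shares of all genes at this p are given above for the main fit and for DESeq2. Those of the other fits are not given here, so none of these counts is read as an excess. Channel genes without overlap, with the share of all genes in brackets, numbered 2 (18.2%) in DNP versus CON, 3 (18.2%) in FPKM and 4 (32.4%) without the cerebellum-rich libraries. In BAC versus DNP they numbered 0 (6.79%), and 5 (67.5%) without the hindbrain-rich libraries. In BAC versus CON they numbered 1 (13.4%), 3 (13.4%) in FPKM, 2 (13.5%) in CPM scaled on those 2 groups only, 6 (40.3%) without the cerebellum-rich and 4 (50.4%) without the hindbrain-rich libraries. Over both diabetic groups they numbered 0 (6.95%), 2 (7.19%) in FPKM, 3 (21.6%) without the cerebellum-rich and 1 (22%) without the hindbrain-rich libraries. Genes with an adjusted p under 0.05 numbered 0 by edgeR in each comparison, 1 over both diabetic groups with covariates, and 342, 7, 100 and 364 by DESeq2.

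Leaving out 1 library at a time gave 1 to 3 channel genes at p under 0.05 in DNP versus CON, 0 to 1 in BAC versus DNP, 0 to 3 in BAC versus CON and 1 to 4 over both diabetic groups. Channel genes without overlap numbered 2 to 4, 0 to 4, 1 to 4 and 0 to 2. The shares of all genes in these fits are not given here, so the counts are not read as an excess. Fewer libraries raise that share, as from 18.2% to 32.4% in DNP versus CON without the cerebellum-rich libraries. Genes called in the whole table numbered 0 to 1 in DNP versus CON, BAC versus CON and both diabetic groups versus CON. Log2 fold changes that crossed 0 ran from -1.27 to 0.31 for Cacna2d1 and -0.49 to 0.035 for Cacna2d3 in DNP versus CON, from -1.20 to 0.42 for Cacna2d1, -0.12 to 0.18 for Cacna1b, -0.33 to 0.43 for Hcn2 and -0.19 to 0.47 for Hcn4 in BAC versus DNP, from -0.28 to 0.70 for Cacna2d2 and -0.75 to 0.051 for Cacna1g in BAC versus CON, and from -0.64 to 0.33 for Cacna2d2 over both diabetic groups.

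Same-numbered libraries had correlations of their deviations from the group means from -0.579 to 0.56. DNP 1 and BAC 1 (r = 0.499) and DNP 2 and BAC 2 (r = 0.56) deviated together, and DNP 3 and BAC 3 (r = -0.313) did not. Between CON and a diabetic group r was -0.579 to 0.153. No replicate number deviated together in all groups, so the numbers were not taken to pair the libraries. The replicate block gave 1, 0, 1 and 2 channel genes at p under 0.05, as without it, and Cacna1a at -1.21 (edgeR adjusted p = 0.517) in DNP versus CON.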
